A study of Mus musculus with 20 samples.

Results

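The T cell receptor gene segments are the V, J and C genes of the alpha, beta, gamma and delta receptor chains. Members were the genes of the deposited count table that GENCODE M21 annotates on GRCm38 as V, J or C genes of a receptor chain, pseudogenes left out, and whose counts summed to at least 10 over all 20 libraries. That rule gave 93 members of 220 such annotated genes, in a table of 55406 genes. Among the annotated genes, 62 had 0 counts in every library. At the threshold, 7 segments with 9 counts stayed out, such as Trdv2-2 and Traj26, and 2 with 10 counts, Trav7-5 and Traj24, came in. Of the members, 8 gamma genes carry older symbols (Tcrg-C1 to Tcrg-C4, Tcrg-V1, Tcrg-V4, Tcrg-V6 and Tcrg-V7). Only 26 of the 93 members passed the low-count filter of the test, and each of those had to hold counts in a number of libraries to do so.

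A T cell receptor pairs either an alpha with a beta chain or a gamma with a delta chain. In the thymus a V and a J segment, with a D segment between them in beta and delta, are cut and joined in the DNA, and the joined exon is spliced to the chain's constant gene. Every complete transcript of a chain therefore carries the constant region, while V and J segments differ from clone to clone.

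RNA was sequenced from 20 tumours of female C57/BL6 mice, read as 1 tumour per mouse from the sample titles. All mice had received, into the peritoneal cavity, luciferase-expressing cells derived from ID8, a mouse ovarian cancer line, that lack Trp53 and Brca1, so every group shares that tumour genotype. Untreated mice served as controls (n = 3). PARPi mice (n = 3) were fed olaparib, which blocks the repair enzyme PARP, at 40 mg/kg per day, and ICB mice (n = 3) had the checkpoint antibodies anti-CTLA-4 (100 µg) and anti-PD-L1 (200 µg). Anti-VEGFA, which blocks an angiogenic growth factor, was given at 20 µg on top of PARPi (PARPi+anti-VEGFA, n = 4) or of both other treatments (here the full combination, n = 4), and PARPi+ICB mice (n = 3) had both without it. Antibodies were injected intraperitoneally, and doses were the same in combinations.

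The libraries held 26.9 to 34.7 M counts each, and the members held 832 to 3000 counts of a library, or 0.00283 to 0.00930% of it. Levels are given as CPM, counts per 1 M of the library size after TMM scaling, whose factors ran from 0.958 to 1.03. Tumour cells lacking Trp53 and Brca1 were read together with host cells, and both genes were found in every library, at 50.6 to 71.7 CPM for Trp53 and 10.7 to 24.6 CPM for Brca1. Counts per gene cannot tell host transcripts from any that remain in the tumour cells. Epithelial tumour markers (Msln, Krt7, Krt8, Krt18, Wt1) summed to 1489 to 2153 CPM, and the CD3 genes (Cd3d, Cd3e, Cd3g, Cd247) to 17.5 to 73.3 CPM. In bulk tissue, fewer T cells and less receptor RNA per T cell cannot be told apart. A set of 3 RNAs taken as a measure of library quality (Rn7sk, Lars2 and Mir6236) summed to 150 to 154 CPM in the 3 controls, and to 46.5 to 127 CPM in all treated libraries but 1, full combination 4 at 153 CPM. The part of that difference in the results below was examined only by adding it to the model as a covariate.

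The segments lie in 3 places of the genome. On GRCm38 the alpha members span chr14:52567198-54224206, with the delta members nested among them at chr14:54074905-54148868. The beta members span chr6:40891229-41558452 and the gamma members chr13:19178024-19352756. Annotated segments that are not members reach further, such as Trav1, which starts at chr14:52427928, and Trdv1, which starts at chr14:53881612. Members were 41 of 108 annotated alpha V, 7 of 51 alpha J and the 1 alpha C gene, and 19 of 22 beta V, 12 of 13 beta J and both beta C genes. In gamma they were 5 of 7 V, 0 of 4 J and all 4 C genes, and in delta 1 of 5 V, 0 of 2 J and the 1 C gene. The beta locus was thus read almost whole, and the alpha V and J clusters only in part.

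The J segments are shown because they are the shortest features counted, and because a J segment encodes the Phe-Gly start of the last framework of the chain. The letters come from the GENCODE M21 transcripts, 5′ to 3′, and capitals mark the motif searched, TTNGG followed after 4 bases of any kind by GG, on the transcript strand alone. Trbj1-4 and Traj2 had the highest mean CPM of the beta and alpha J members, Trbj2-3 was among the 3 highest beta J members, and Trbj1-6 is a beta J member without the motif.
Trbj1-4 (chr6:41534811-41534861, + strand): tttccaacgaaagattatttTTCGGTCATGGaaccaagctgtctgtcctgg
Trbj2-3 (chr6:41543223-41543271, + strand): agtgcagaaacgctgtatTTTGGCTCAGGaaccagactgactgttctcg
Traj2 (chr14:54217836-54217901, + strand): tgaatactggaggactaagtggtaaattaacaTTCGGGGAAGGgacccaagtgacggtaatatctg
Trbj1-6 (chr6:41535554-41535606, + strand): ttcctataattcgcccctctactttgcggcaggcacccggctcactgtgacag
The motif was found in 57 of 70 annotated J transcripts (81.4%) and in 16 of 19 J members. Its absence says only that these letters are not in that transcript.

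Near its 3′ end a V segment carries the codon of the conserved cysteine that opens the third hypervariable loop, and the last 45 bases of the germline transcript show how beta V members differ at that end. Trbv16 and Trbv13-2 had the most counts of the beta V members, and Trbv20 and Trbv1 are members that rose in a combination. Capitals mark the motif TGTGCN, a cysteine codon and the start of an alanine codon, searched in those 45 bases on the transcript strand alone.
Trbv16 (ends at chr6:41152230, + strand): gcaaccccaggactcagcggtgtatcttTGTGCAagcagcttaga
Trbv13-2 (ends at chr6:41121832, + strand): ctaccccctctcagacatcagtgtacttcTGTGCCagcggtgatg
Trbv20 (ends at chr6:41188977, + strand): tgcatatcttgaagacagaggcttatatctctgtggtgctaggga
Trbv1 (ends at chr6:40891885, + strand): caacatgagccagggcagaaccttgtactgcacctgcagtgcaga
The motif was found in 117 of 142 annotated V ends (82.4%) and in 52 of 66 V members, and not in Trbv20 and Trbv1.

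The 2 beta constant genes are nearly identical, which bears on how their shared reads could be counted. Over the first 370 bases of their transcripts they differ at 1 position (99.7% identity), the substitution C260A, counted from 1 at the 5′ end of the transcript with the Trbc1 base first. It is printed in capitals within transcript positions 230 to 290.
Trbc1 (gene at chr6:41538218-41539881, + strand): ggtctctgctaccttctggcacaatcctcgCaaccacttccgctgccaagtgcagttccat
Trbc2 (gene at chr6:41546730-41548352, + strand): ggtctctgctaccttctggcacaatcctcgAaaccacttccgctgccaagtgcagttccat
Of all 50-base stretches, 59.5% of those of Trbc1 and 56.0% of those of Trbc2 occur in the transcript of no other gene. Values for either gene alone are therefore uncertain. Their sum does not depend on how reads were split between the 2 genes. It would be too low, also against Trac, if reads shared by both were left uncounted. How the counting treated such reads is not known here. Tcrg-C1 and Tcrg-C2 share 97.3% of their first 330 bases, Tcrg-C1 and Tcrg-C3 share 96.1%, and Tcrg-C4 stands apart at 82.1% identity to Tcrg-C1. Stretches were unique in all of Trac and Tcrg-C4 and in 94.1% of Trdc. Among alpha V members the median unique share was 56.9% (11.0 to 100%), against 100% among beta V members, so single alpha V values are also uncertain.

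The constant genes carried most of the signal. Of 35162 member counts over the 20 libraries, Trac, the alpha constant gene, held 38.8%, the beta constant genes 31.1%, the gamma constant genes 9.29% and Trdc, the delta constant gene, 2.12%. V members held 10.2% (beta), 3.50% (alpha), 1.60% (gamma) and 0.210% (delta, Trdv4 alone), and J members 2.33% (beta) and 0.845% (alpha). All 7 constant genes other than Tcrg-C3 were found in all 20 libraries, together with 9 V and 4 J members. The alpha V members held 10 to 120 counts each, with a median of 22, and were found in 4 to 18 libraries. Beta V members were found in a median of 19 libraries.

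Per kilobase of annotated exon, as counts over all 20 libraries, Trac (ENSMUSG00000076928, chr14:54220521-54224206) led at 14591, ahead of Trbc2 (ENSMUSG00000076498) at 9681 and Trbc1 (ENSMUSG00000076490) at 5678. The gamma constants stood at 2022 for Tcrg-C2 (chr13:19304649-19307551), 767 for Tcrg-C1 (chr13:19214103-19217024), 692 for Tcrg-C4 (chr13:19344558-19352756) and 43.1 for Tcrg-C3. Trdc (chr14:54142851-54148868), whose annotated exons are 3865 bases long, had 193. Short J segments reached high values on the same scale, with 3745 for Trbj1-4, 2455 for Traj2 and 2061 for Trbj2-3. Trbv16 (chr6:41151740-41152230), the beta V member with the most counts, stood at 1636. Among the constant genes alpha and beta thus stood above gamma and delta on this scale, and Trdc stood above Tcrg-C3 alone. By mean CPM, which takes no account of length, Trdc ranked above Tcrg-C1 and Tcrg-C4.

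Receptor RNA of both kinds was higher in every treated library than in every control. Summed over alpha and beta members, the controls stood at 27.1, 30.2 and 24.6 CPM (27.3 ± 2.80, mean ± SD, n = 3). PARPi libraries stood at 42.3, 34.0 and 39.5 CPM (38.6 ± 4.22, n = 3), 1.41 times the control mean, and ICB libraries at 36.9, 43.1 and 44.5 CPM (41.5 ± 4.09, n = 3), 1.52 times. The 2 single treatments overlapped each other and neither overlapped the controls. Summed over gamma and delta members, controls held 2.88 to 4.599 CPM and treated libraries 5.04 to 13.5 CPM, again with no overlap.

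The combinations lay higher on the same alpha and beta sum. PARPi+anti-VEGFA libraries stood at 54.5, 40.9, 68.9 and 60.2 CPM (56.1 ± 11.8, n = 4), PARPi+ICB libraries at 55.8, 45.6 and 76.6 CPM (59.3 ± 15.8, n = 3), and full combination libraries at 62.9, 63.3, 84.7 and 53.0 CPM (66.0 ± 13.4, n = 4). These are 2.06, 2.17 and 2.42 times the control mean. The 3 combinations overlapped one another, PARPi+ICB and the full combination lay above all PARPi and ICB libraries, and PARPi+anti-VEGFA overlapped both. The sums are descriptions of the libraries and carry no test. With the constant genes alone, the control, PARPi and ICB means were 23.1, 31.7 and 32.7 CPM.

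Split by chain, the alpha sum went from 14.4 ± 1.45 CPM in controls (n = 3) to 30.9 ± 7.06 in the full combination (n = 4), and the beta sum from 12.9 ± 1.81 to 35.1 ± 6.67. The ratio of alpha to beta was 1.12 ± 0.146 in controls and 0.879 ± 0.083 in the full combination, with all 4 full combination libraries below all 3 controls. Gamma sums were 3.02 ± 0.808 CPM in controls, 4.57 ± 0.244 with PARPi, 5.18 ± 0.507 with ICB, 6.56 ± 2.96 with PARPi+ICB, 7.92 ± 2.31 with PARPi+anti-VEGFA and 8.72 ± 2.68 in the full combination. Only PARPi+ICB overlapped the controls in gamma. Delta sums were 0.668 ± 0.153 CPM in controls, 1.25 ± 0.652 with PARPi, 0.578 ± 0.184 with ICB, 1.23 ± 0.393 with PARPi+ICB, 1.96 ± 0.281 with PARPi+anti-VEGFA and 1.89 ± 0.372 in the full combination. For delta, only the 2 groups given anti-VEGFA lay wholly above the controls on this scale.

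**Figure D1:**
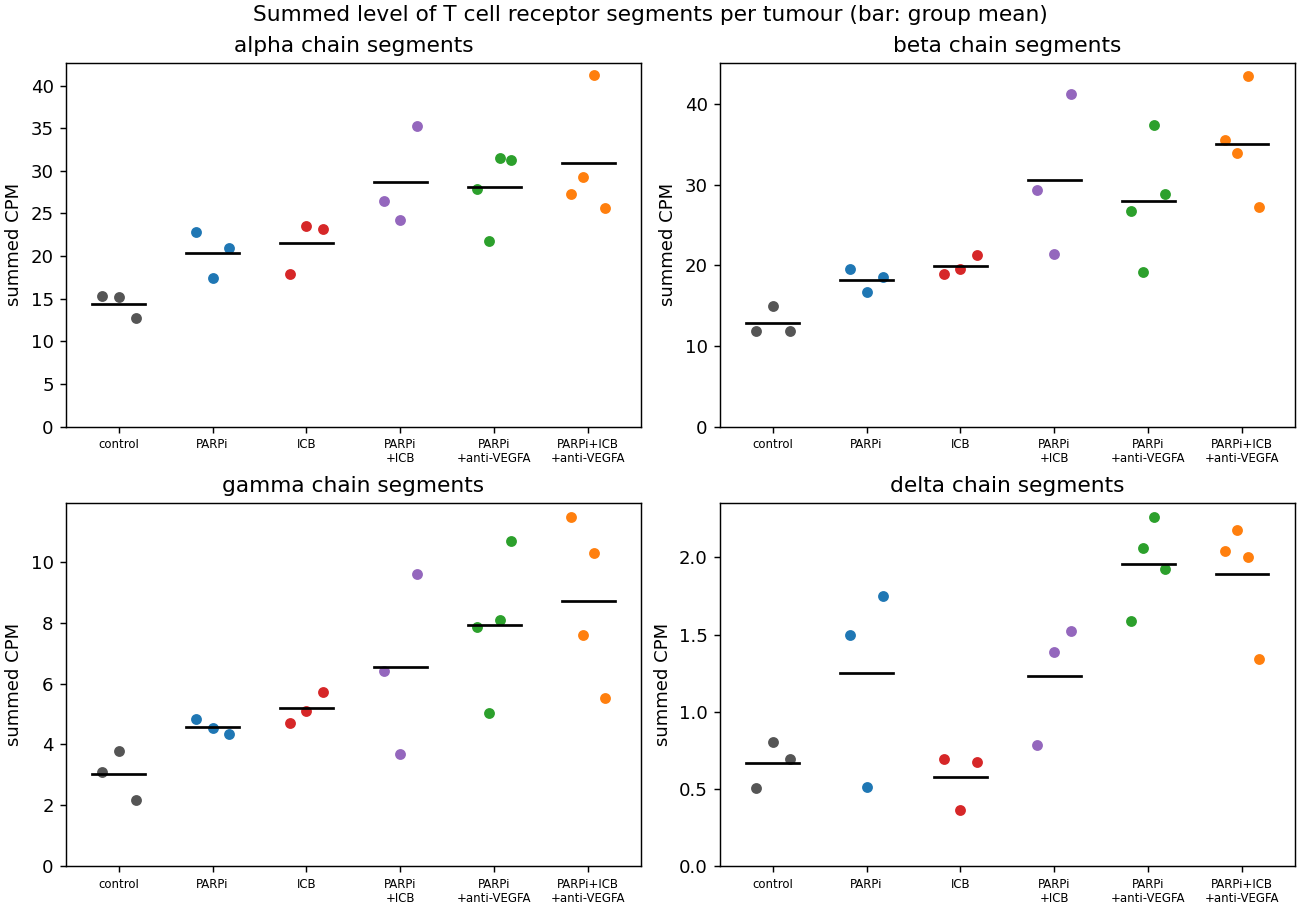
Summed CPM (vertical axis) of the alpha, beta, gamma and delta members in each of 20 tumours, by treatment group; points are tumours and bars are group means. Alpha and beta sums lay above the controls in every treated tumour, and delta sums of ICB tumours (0.365 to 0.691 CPM) lay at the level of the controls (0.503 to 0.806 CPM).

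Trac encodes the constant region that every alpha chain carries, and it was tested with all genes of the table in edgeR's quasi-likelihood fit. Its CPM were 14.1, 13.9 and 12.0 in controls, 20.7, 15.9 and 19.1 with PARPi, and 16.2, 20.9 and 20.8 with ICB. They were 24.97, 19.4, 28.2 and 27.95 with PARPi+anti-VEGFA, 23.5, 22.2 and 31.4 with PARPi+ICB, and 23.1, 26.5, 37.7 and 22.9 in the full combination. Every treated library lay above every control, and the lowest PARPi and ICB libraries lay closest to them. The log2 change against control was 0.94 ± 0.19 (SE) with PARPi+ICB (adjusted p = 0.00298), 0.91 ± 0.18 with PARPi+anti-VEGFA (0.00282) and 1.05 ± 0.18 in the full combination (0.000716), all called at an adjusted p under 0.05. It was 0.47 ± 0.19 with PARPi (0.335) and 0.53 ± 0.19 with ICB (0.151), neither called.

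Trbc2 and Trbc1, the constant regions of beta chains, were called in the same 3 combinations as Trac and in neither single treatment. Trbc2 stood at 5.29, 6.98 and 5.92 CPM in controls and at 16.8, 15.2, 19.3 and 12.0 CPM in the full combination. Trbc1 stood at 3.68, 4.13 and 3.27 CPM in controls and at 9.11, 10.1, 12.0 and 7.38 CPM in the full combination. In both genes the full combination did not overlap the controls, and the log2 change was 1.38 ± 0.21 for Trbc2 (edgeR adjusted p = 0.000249) and 1.38 ± 0.25 for Trbc1 (0.000943). Both genes rose as well with PARPi+ICB, by 1.08 ± 0.22 (0.00288) and 1.29 ± 0.26 (0.00297), and with PARPi+anti-VEGFA, by 1.04 ± 0.21 (0.00279) and 0.98 ± 0.25 (0.0118). The value of Trbc1 with PARPi+anti-VEGFA was not called without control 3. With PARPi alone Trbc1 stood at 5.99, 4.91 and 5.31 CPM and with ICB at 5.15, 4.81 and 5.72 CPM, all above the controls, with log2 changes of 0.55 ± 0.26 (0.442) and 0.50 ± 0.26 (0.333), neither called. Trbc1 took 31.7 to 43.3% of the reads of the pair, with group means of 36.5 to 41.0%, with all treated groups overlapping the controls.

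Gamma and delta constant genes were called in the 2 groups that received anti-VEGFA, which held 4 libraries each where the others held 3. Tcrg-C1 stood at 0.566, 0.705 and 0.430 CPM in controls, at 0.884, 1.29, 1.38 and 1.51 CPM with PARPi+anti-VEGFA and at 2.92, 2.07, 1.88 and 1.21 CPM in the full combination. Both treated groups lay wholly above the controls, with log2 changes of 1.15 ± 0.38 (edgeR adjusted p = 0.0416) and 1.83 ± 0.37 (0.00228). Tcrg-C2, the most abundant gamma constant gene, stood at 1.51, 1.75 and 1.19 CPM in controls, 4.03, 2.09, 3.83 and 5.21 CPM with PARPi+anti-VEGFA and 5.87, 3.03, 5.37 and 2.21 CPM in the full combination. It also did not overlap the controls and rose by 1.35 ± 0.38 (0.0206) and 1.47 ± 0.38 (0.00970). Tcrg-C4 rose by 1.54 ± 0.37 (0.00888) and 1.35 ± 0.37 (0.0141). In the groups without anti-VEGFA its log2 change was 0.86 ± 0.40 with PARPi (0.415), 1.00 ± 0.39 with ICB (0.193) and 1.14 ± 0.39 with PARPi+ICB (0.0550), none called. The PARPi+ICB change of Tcrg-C4 was called in 3 of 12 alternatives. Tcrg-C2 stood at 3.05, 2.72 and 2.49 CPM with ICB and 2.85, 1.85 and 5.16 CPM with PARPi+ICB, all above the controls. Its edgeR adjusted p was 0.757 with PARPi, 0.254 with ICB and 0.0582 with PARPi+ICB, the last called in 2 of 12 alternatives. For Tcrg-C1 the values were 0.698, 0.448 and 0.122 in the same order, the last called in 1 of 12 alternatives. The calls of Tcrg-C1 and Tcrg-C2 with PARPi+anti-VEGFA were lost in 8 and 5 of 13 alternatives, among them the fits without control 1 and without control 3. Tcrg-C4 was not called without control 3 in either group. Tcrg-C3 had 28 counts over all libraries, 1 of them in a control, and was not tested.

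Trdc encodes the constant region of delta chains. Its CPM were 0.441, 0.638 and 0.661 in controls, 1.41, 0.482 and 1.53 with PARPi and 0.628, 0.299 and 0.615 with ICB. They were 1.47, 1.94, 2.11 and 1.81 with PARPi+anti-VEGFA, 0.698, 1.33 and 1.45 with PARPi+ICB, and 1.85, 1.93, 1.65 and 1.24 in the full combination. ICB libraries overlapped the controls, PARPi libraries straddled them, and all combination libraries lay above them. The log2 change was 1.66 ± 0.37 with PARPi+anti-VEGFA (edgeR adjusted p = 0.00525) and 1.52 ± 0.37 in the full combination (0.00641), both called. It was 0.97 ± 0.39 with PARPi (0.328), -0.16 ± 0.41 with ICB (0.887) and 0.99 ± 0.39 with PARPi+ICB (0.0895), none called. The PARPi+ICB change of Trdc was called in 1 of 12 alternatives. The ICB value was 0.10 without ICB 2, whose 0.299 CPM was the lowest of all 20 libraries. Delta counts were 14.04 to 24.1% of gamma and delta counts in controls and 6.67 to 12.8% with ICB, with no overlap. They were 10.2 to 28.6% with PARPi, 10.9 to 27.4% with PARPi+ICB, 15.1 to 22.3% in the full combination, and 15.3 to 29.0% with PARPi+anti-VEGFA, so single PARPi and PARPi+ICB libraries lay within the ICB range.

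Natural killer cells can carry unrearranged delta and gamma constant transcripts, so their markers (Ncr1, Klrb1c, Klra8, Klre1, Klrk1, Eomes) are given beside these values. Their sum lay between 4.07 and 6.98 CPM in controls, and between 7.72 and 9.73 CPM in PARPi, 6.41 and 8.15 CPM in ICB and 8.99 and 12.9 CPM in PARPi+ICB libraries. It reached 10.7 to 17.9 CPM in PARPi+anti-VEGFA and 10.4 to 15.9 CPM in full combination libraries. No marker was at 0 in any library. In edgeR, 0 of 6 markers were called with PARPi or ICB (3 and 1 at an unadjusted p under 0.05, and 0 by DESeq2), 2 of 6 rose with PARPi+ICB and all 6 rose in both groups with anti-VEGFA. Of all genes, edgeR called 0.0551, 1.23, 9.58, 9.99 and 12.6% higher with PARPi, ICB, PARPi+ICB, PARPi+anti-VEGFA and the full combination. The part of natural killer RNA in the gamma and delta constants was not tested.

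**Figure D2:**
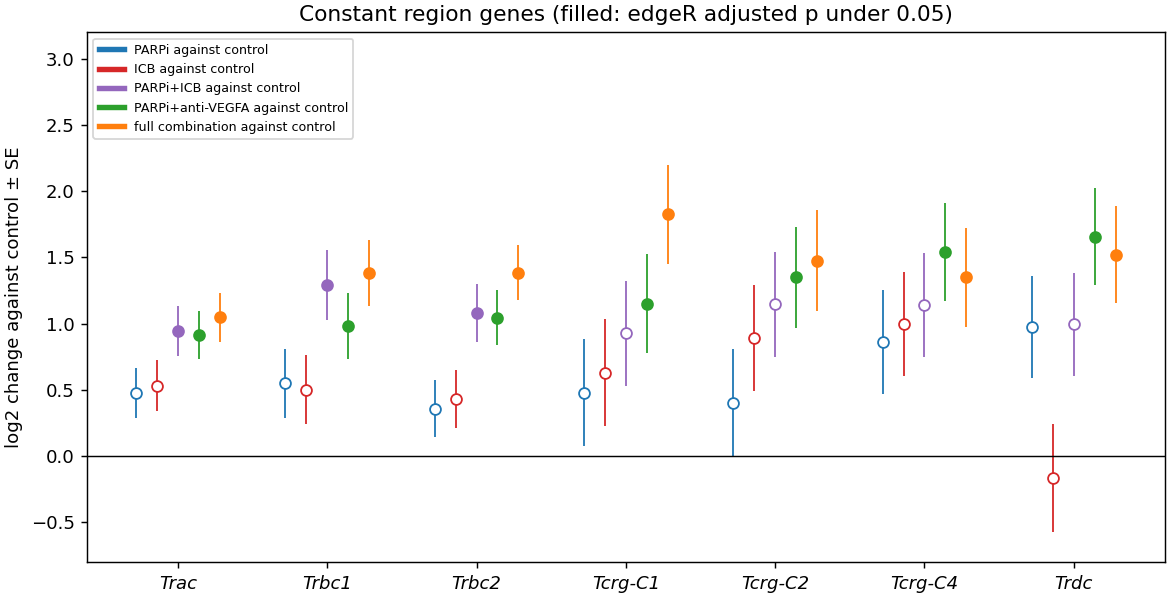
Log2 change against control (vertical axis, ± SE) of the 7 tested constant genes under 5 treatments; filled points had an edgeR adjusted p under 0.05. Trac, Trbc1 and Trbc2 were called in all 3 combinations and the gamma genes and Trdc in the 2 with anti-VEGFA, and the lowest value is Trdc with ICB at -0.16.

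With PARPi alone 0 of 26 tested members were called by edgeR (5 at an unadjusted p under 0.05), where 0.0551% of all 18144 genes tested were called higher and 0.011% lower. With ICB alone 0 of 26 were called (9 at an unadjusted p under 0.05), against 1.23% of all genes higher and 0.976% lower. Of the members, 6 of 26 rose with PARPi+ICB against 9.58% of all genes, 10 of 26 with PARPi+anti-VEGFA against 9.99%, and 12 of 26 in the full combination against 12.6%. No member fell in these 3 contrasts, where 6.52, 7.8 and 11.5% of all genes did. DESeq2, which gave an adjusted p to 12, 12, 21, 26 and 38 members in the 5 contrasts in the order given, called 0, 0, 10, 10 and 16 of them higher, against 1.73, 3.73, 11.5, 11.8 and 13.2% of its genes.

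The median log2 change of the tested members was 0.52, 0.82, 1.18, 1.36 and 1.47 in the same order, where the median over all genes lay between -0.02 and 0.00. Members with all treated libraries above all controls numbered 8, 6, 12, 12 and 16 of 26, against 11.2, 11.7, 17.5, 14.2 and 14.9% of all genes. The 5 contrasts share their 3 controls, and the tested members are those with enough counts to test. The filter could be met by treated libraries alone. Trbv13-2, Trbv1, Trbv20 and Trbv26, all called in the full combination, had at most 9 counts in any control, under the filter's minimum of 10. Trbv15, called with PARPi+ICB and with PARPi+anti-VEGFA, reached that minimum in no control but control 1. The counts of called members and their median changes thus lean towards rises and are descriptions only.

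With the quality RNAs as a covariate, an alternative added after the data were seen, 0 members remained called with PARPi+ICB and 0 with PARPi+anti-VEGFA, and 5 in the full combination, namely Trac, Trbc1, Trbc2, Tcrg-C1 and Trbv13-2. Over all genes that fit called 492, 0 and 1494 higher in these contrasts, where the fit without it called 1739, 1812 and 2294. The quality RNAs summed to 150 to 154 CPM in controls, 61.6 to 81.9 with PARPi+ICB and 46.5 to 62.3 with PARPi+anti-VEGFA. Quality and treatment thus cannot be told apart in those 2 groups by this fit. The highest adjusted p of Trac among its alternatives was 0.105 with PARPi+ICB, 0.306 with PARPi+anti-VEGFA and 0.00793 in the full combination.

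Steps between treatments gave few calls among the members, and none fell. Adding ICB to PARPi, 1 of 26 rose (0.882% of all genes higher, 0.38% lower), Trbv13-2, a beta V segment, by 1.85 ± 0.40 log2 (edgeR adjusted p = 0.0285), and that call was lost in 6 of 12 alternatives. Its counts were 8, 9 and 7 with PARPi and 37, 15 and 35 with PARPi+ICB, with no overlap. DESeq2 called 2 members there, against 3.19% of its genes. Adding ICB to PARPi+anti-VEGFA, edgeR called 0 members (2 at an unadjusted p under 0.05) against 0.0772% of all genes higher and 0.011% lower, and DESeq2 called 0 against 0.854%.

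Adding anti-VEGFA to PARPi, edgeR called 0 members (8 at an unadjusted p under 0.05) against 0.298% of all genes higher and 0.276% lower, and DESeq2 called 1 against 2.23%. Trbc2 had a log2 change of 0.69 ± 0.20 in this step (edgeR adjusted p = 0.127) and Trdc of 0.68 ± 0.34 (0.349). Adding anti-VEGFA to PARPi+ICB, edgeR called 0 members (2 at an unadjusted p under 0.05) and 0% of all genes either way, and DESeq2 called 0 against 0.0456%. Tcrg-C1 had a log2 change of 0.90 ± 0.35 in this step (0.999). The gamma and delta genes were thus called against control in the groups with anti-VEGFA, and in neither step that added anti-VEGFA itself.

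The interaction of PARPi with ICB asks whether their joint change on the log2 scale departs from the sum of the single changes. By edgeR it called 0 members (0 at an unadjusted p under 0.05) and 0% of all genes either way, and by DESeq2 0 members against 0.0124% of its genes. Trac had an interaction of -0.06 ± 0.27 log2 (edgeR adjusted p = 0.997), Trbc2 of 0.29 and Tcrg-C4 of -0.72 ± 0.54 (0.9752).

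The share of gamma and delta segments among all member counts had group means of 11.4 to 14.98%. It was 11.7, 13.2 and 10.5% in controls (11.8 ± 1.38%, n = 3), 13.1 ± 0.246% with PARPi, 12.2 ± 0.818% with ICB, 11.4 ± 1.34% with PARPi+ICB (n = 3 each), 14.98 ± 1.76% with PARPi+anti-VEGFA and 13.8 ± 2.72% in the full combination (n = 4 each). No group lay wholly outside the controls on this share of all members. With the constant genes alone, PARPi+anti-VEGFA lay wholly above the controls. PARPi+anti-VEGFA libraries, at 14.8, 14.8, 13.1 and 17.3%, lay above all ICB and all PARPi+ICB libraries. The highest share was 17.7% in full combination 1 (95% Wilson interval 16.2 to 19.3%) and the lowest 9.99% in PARPi+ICB 2 (8.63 to 11.5%), so these 2 libraries differed by more than counting error. Intervals cover counting error only. Leaving out the alpha V segments that also serve delta chains moved no group mean by more than its SD.

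**Figure D3:**
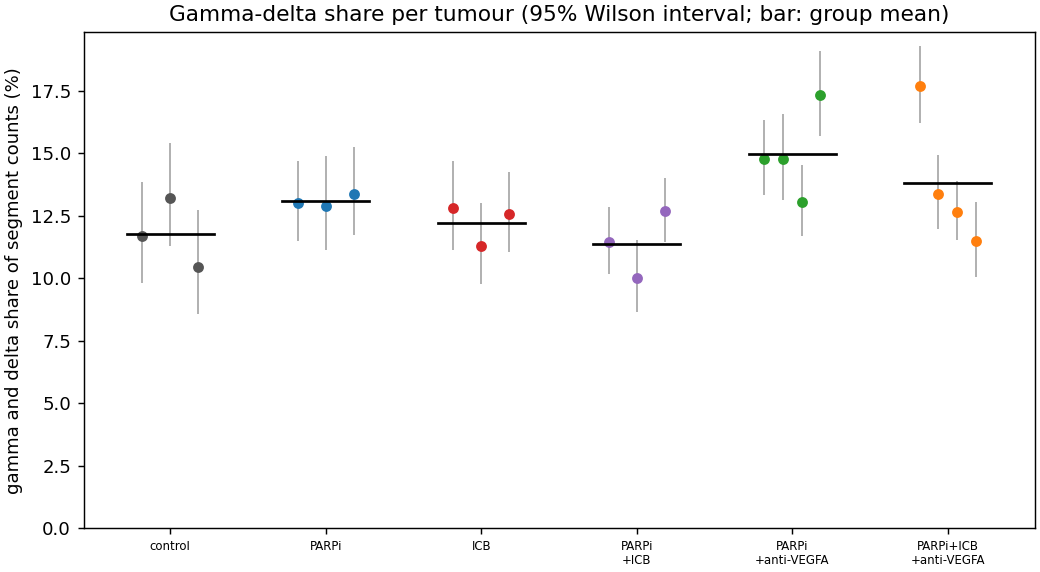
Gamma and delta share of all segment counts (vertical axis, percent) in each tumour, with 95% Wilson intervals and bars at the group means. The lowest group mean was 11.4% (PARPi+ICB) and the highest 14.98% (PARPi+anti-VEGFA), and no treated group lay wholly apart from the controls at 10.5 to 13.2%. With constant genes alone (not drawn), PARPi+anti-VEGFA lay wholly above the controls.

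Beta V use was spread over many segments with a common leader. Trbv16 took 18.2% of beta V counts over all libraries, and 12.2 to 27.1% of them in single libraries. It was the sole leader in 15 libraries and shared the lead in 1. Other segments led in 4 libraries, namely Trbv2 in control 3, Trbv13-1 in ICB 1, Trbv20 in PARPi+ICB 2 and Trbv15 in PARPi+ICB 3. After Trbv16 came Trbv13-2 with 9.77%, Trbv13-1 with 9.13%, Trbv15 with 8.90% and Trbv19 with 7.39% of beta V counts.

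Trbv16 CPM were 0.503, 0.772 and 0.264 in controls, 1.38, 0.647, 1.38 and 1.96 with PARPi+anti-VEGFA and 2.21, 1.07, 1.29 and 0.828 in the full combination. The full combination lay above all controls and PARPi+anti-VEGFA overlapped them, and Trbv16 was called in both, at 1.39 ± 0.44 log2 (edgeR adjusted p = 0.0279) and 1.38 ± 0.44 (0.0372). Trbv13-2, with 7, 9 and 9 counts in controls, had 23, 18, 25 and 24 counts in the full combination and rose by 1.46 ± 0.38 (0.0103). It rose with PARPi+ICB by 1.70 ± 0.39 (0.00700), and its 28, 14, 21 and 13 counts with PARPi+anti-VEGFA gave 1.18 ± 0.38 (0.0403), a call lost in 10 of 13 alternatives. Trbv13-2 was the only V member called in all 3 combinations.

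Several V calls rested on very few control counts. Trbv20, Trbv15, Trbv26 and Trbv1 could not have passed the low-count filter on their control libraries alone, which favours rises among them. Trbv20 had 2, 2 and 0 counts in controls and 3, 28 and 18 with PARPi+ICB, a ratio of the summed rates of 11.6 (95% interval 4.25 to 44.2, counting error only), and was called there (3.44 ± 0.90, edgeR adjusted p = 0.0141) and in the full combination (2.98 ± 0.89, 0.0218). Trbv15 had 12, 2 and 1 counts in controls and 20, 14 and 49 with PARPi+ICB (2.40 ± 0.76, 0.0392), and 27, 6, 30 and 30 with PARPi+anti-VEGFA (2.26 ± 0.74, 0.0419), where it overlapped the controls. In the full combination Trbv26 had 11, 6, 13 and 8 counts against 0, 2 and 1 (ratio 9.79, 3.11 to 49.6) and a log2 change of 3.13 ± 0.99 (0.0293). Trbv1 had 16, 8, 18 and 18 counts there against 1, 7 and 0, and rose by 2.47 ± 0.80 (0.0317). These calls were fragile. Trbv15 was lost in 5 of 12 alternatives with PARPi+ICB and 8 of 13 with PARPi+anti-VEGFA, Trbv20 in 3 of 12 with PARPi+ICB and 4 of 13 in the full combination, Trbv26 in 4, Trbv16 in 5 and Trbv1 in 6 of 13 in the full combination.

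In 3 libraries a single beta V took more than 25% of beta V counts. They were ICB 1 with 35 of 135 counts on Trbv13-1 (25.9%, 95% Wilson interval 19.3 to 33.9%), PARPi+anti-VEGFA 4 with 52 of 207 on Trbv16 (25.1%) and full combination 1 with 68 of 251 on Trbv16 (27.1%, 22.0 to 32.9%). The number of beta V segments found in 60 counts drawn from each library was 13.4 ± 1.29 in controls, 14.9 ± 1.48 with PARPi, 13.8 ± 1.06 with ICB, 14.4 ± 0.819 with PARPi+anti-VEGFA, 15.5 ± 0.428 with PARPi+ICB and 15.5 ± 1.27 in the full combination. PARPi+ICB alone lay wholly above the controls.

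**Figure D4:**
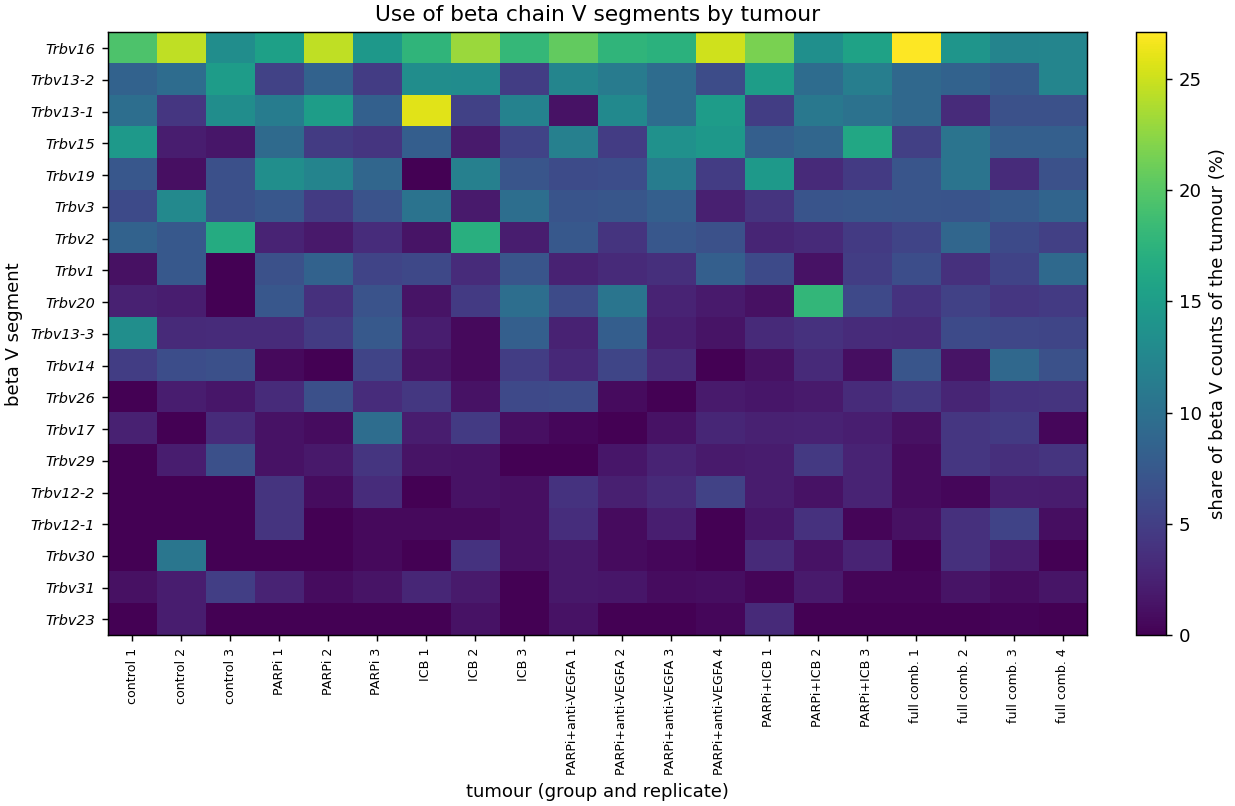
Colour gives the share of beta V counts (percent) that each of 19 beta V members (rows) took in each tumour (columns, in the order control, PARPi, ICB, PARPi+anti-VEGFA, PARPi+ICB and full combination). Trbv16 is the sole largest in 15 of 20 tumours and peaks at 27.1% in full combination 1.

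No single alpha V segment led as often as Trbv16. Trav16 took 8.91% of alpha V counts, Trav6-7-dv9, which can also join to delta segments, 6.16%, Trav16n 6.01%, Trav13-1 3.86% and Trav3-3 3.49%. Trav16, Trav16n and Trav16d-dv11 (1.34% of counts) share sequence with one another, with 51.8, 49.5 and 37.2% of their 50-base stretches unique. The part that splitting or loss of reads shared among copies had in the lack of a common leader was not tested. With 1 segment taken where segments tied, 12 different alpha V segments led, Trav16 in 6 libraries, on only 21 to 102 alpha V counts per library. Trav13-1 tied with Trav4-4-dv10 in PARPi+anti-VEGFA 2 (8 counts each) and with Trav14d-3-dv8 in full combination 2 (9 each). Drawn to 21 counts, controls had 11.4 ± 1.51 alpha V segments, PARPi+ICB 14.2 ± 0.135 and the full combination 14.2 ± 0.809, both wholly above the controls, while PARPi, ICB and PARPi+anti-VEGFA overlapped them. Trav16 was the only alpha V member with enough counts to test, and it was called in no contrast.

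Among gamma V segments Trgv2 took 58.5%, Tcrg-V1 20.2% and Tcrg-V4 13.3% of the counts. Trgv2 had 13, 12 and 3 counts in controls and 32, 7, 17 and 42 with PARPi+anti-VEGFA, with overlap. Tcrg-V1 had 0, 3 and 2 counts in controls and 1, 18, 11 and 4 in the full combination, also with overlap. Neither was called in any contrast. Trdv4, the sole delta V member, had 8 control counts (2, 5 and 1), 27 in the full combination (6, 7, 11 and 3) and at most 7 in any other library, and was not tested.

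Rearranged V segments can be set against the constant genes of their chain. Alpha V counts per 100 Trac counts were 6.32 ± 0.713 in controls, 7.91 ± 0.775 with PARPi, 9.22 ± 0.684 with ICB, 9.13 ± 1.78 with PARPi+ICB, 9.82 ± 0.803 with PARPi+anti-VEGFA and 10.03 ± 2.37 in the full combination. All groups but PARPi+ICB lay wholly above the controls. Beta V counts per 100 beta constant counts were 26.3 ± 4.05 in controls and 37.1 ± 4.91 with ICB, 33.1 ± 2.05 with PARPi+ICB and 32.4 ± 2.16 in the full combination, which all lay above the controls, and PARPi and PARPi+anti-VEGFA overlapped them. Gamma V counts per 100 gamma constant counts overlapped the controls (17.005 ± 2.92) in every group. V reads were thus a larger part of alpha and beta reads in most treated groups. The quality RNAs above moved between controls and treated groups in the same libraries, and their part in these ratios was not tested.

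Beta J counts per 100 beta constant counts were 5.91 ± 2.46 in controls and 12.1 ± 3.87 with ICB, whose libraries (8.93 to 16.4) lay above all controls (3.16 to 7.91). The other groups overlapped the controls. Trbj2-3 had 1, 2 and 3 counts in controls and 7, 11 and 15 with ICB, and Trbj1-4 had 2, 5 and 12 against 15, 8 and 11. Neither gene was called with ICB or in any other contrast, nor was Traj2, the one alpha J member tested. The trypsinogen genes, digestive enzymes of the exocrine pancreas that lie inside the beta locus between chr6:41302269 and chr6:41525079, summed to 24.4 CPM in ICB 3, 99.5 and 144 CPM in PARPi+anti-VEGFA 1 and 4, and 654 CPM in full combination 2, and to at most 2.28 CPM elsewhere. Beta J per 100 beta constant counts in those 4 libraries was 16.4, 9.16, 12.02 and 4.802 in that order. Whether transcription of the trypsinogens adds reads to beta segments was not tested.

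The CD3 proteins carry the signal of every receptor to the cell interior, and their genes moved with the segments. Cd3e, the epsilon chain, stood at 5.27 ± 1.09 CPM in controls and 18.1 ± 4.32 in the full combination, and Cd3d, the delta chain of CD3, at 2.53 ± 0.160 and 8.49 ± 1.80. All 4 CD3 genes tested rose in each combination, in the full combination by 1.78 ± 0.25 (Cd3e), 1.75 ± 0.22 (Cd3d), 1.40 ± 0.21 (Cd247, the zeta chain) and 1.23 ± 0.23 log2 (Cd3g). With ICB only Cd3d was called (0.91 ± 0.23, edgeR adjusted p = 0.0467), and with PARPi 0 of 4 (3 at an unadjusted p under 0.05, and 1 by DESeq2). Of all genes, 9.58, 9.99 and 12.6% rose with PARPi+ICB, PARPi+anti-VEGFA and the full combination. With ICB 1.23% did, and with PARPi 0.0551% (1.73% by DESeq2). The alpha and beta sum per summed CD3 CPM was 1.34 ± 0.182 in controls and 1.14 ± 0.0229 in the full combination, with all 4 full combination libraries below all controls. Natural killer markers were higher there too, and the part of natural killer RNA in the CD3 sum was not tested.

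**Figure D5:**
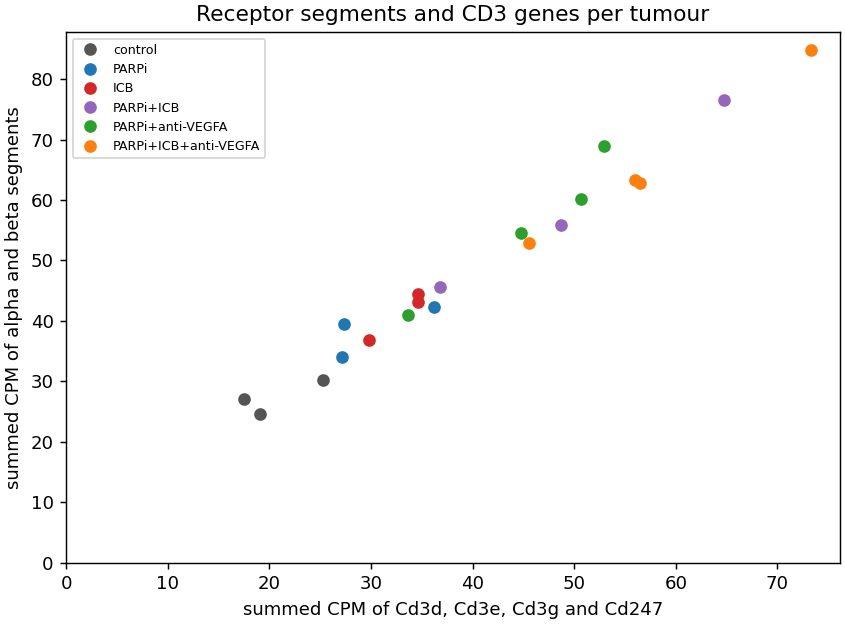
Summed CPM of alpha and beta members (vertical axis) against summed CPM of Cd3d, Cd3e, Cd3g and Cd247 (horizontal axis) in 20 tumours, coloured by group. Controls lie at 17.5 to 25.3 CPM of CD3 and the highest tumour, full combination 3, at 73.3 CPM of CD3 and 84.7 CPM of segments.

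The coreceptors and the signalling proteins below the receptor gave similar counts. Cd4, Cd8a and Cd8b1, which bind the presenting molecule beside the receptor, all rose in the 3 combinations, and Cd4 alone rose with ICB (0.84 ± 0.22, edgeR adjusted p = 0.0489). Of 20 signalling genes, 0 were called with PARPi (11 at an unadjusted p under 0.05, and 2 by DESeq2) and 2 with ICB. In PARPi+ICB 17 rose, in PARPi+anti-VEGFA 17 and in the full combination 19, against 9.58, 9.99 and 12.6% of all genes. The same shares stand beside the coreceptors, and 0.0551% of all genes were called higher with PARPi and 1.23% with ICB. The signalling genes called with ICB were Lat, the scaffold that the receptor kinase phosphorylates (0.89 ± 0.20, 0.0255), and Sit1, an adaptor of T cells (1.57 ± 0.39, 0.0411). Lck, the kinase that phosphorylates CD3, rose by 1.51 ± 0.18 in the full combination (5.15e-05). Adding ICB to PARPi, 5 of 20 signalling genes rose against 0.882% of all genes, among them Lat (1.05 ± 0.20, 0.0161). With the quality RNAs as a covariate, 2 CD3, 1 coreceptor and 10 signalling genes were called higher with PARPi+ICB, 0 of each with PARPi+anti-VEGFA, and 4, 3 and 17 in the full combination. Of all 18144 genes that fit called 492, 0 and 1494 higher.

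Segments of invariant T cells had few counts. Trav11 and Trav11d, the alpha V of CD1d-restricted natural killer T cells, had 0 counts over all 20 libraries, Trav11n, a copy annotated as a pseudogene and so no member, had 7, and Traj18, the J segment of that chain, had 2. Trav11 and Trav11d are near-identical copies, so counts of each are uncertain and no limit is given for them. Trav1 and Traj33, which form the alpha chain of mucosal-associated invariant T cells, had 4 and 3 counts. Zbtb16, a transcription factor of both kinds of cell, rose by 2.39 ± 0.46 with PARPi+ICB, 1.94 ± 0.45 with PARPi+anti-VEGFA and 2.37 ± 0.45 in the full combination. Of all genes, 9.58, 9.99 and 12.6% rose in these contrasts. With the quality RNAs as a covariate, 0 of all genes were called with PARPi+anti-VEGFA. Which cells held the Zbtb16 RNA was not tested. The counts of these invariant segments were too few to compare between groups. Rag1 and Rag2, which cut the segments in the thymus, and Ptcra, the surrogate alpha chain of the pre-T cell receptor, were too low to test. Dntt, which adds bases at the joints, was called in no contrast.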

How the data were processed

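Whole-number read counts per Ensembl gene were deposited by the authors for 20 stranded whole-transcriptome libraries of frozen tumour tissue, and per the submitters' processing notes reads were aligned to GRCm38 with STAR and counted with HTSeq. Tool versions, annotation and the strand setting are not given in the sources used here, so reads of overlapping genes on opposite strands may not be separated. The authors also deposited log2 values of RPKM, which were used only to check gene names and lengths. For Trac they imply a length of 3639 bases, near the gene's span and not its exons, so levels per length here use counts over exons.

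Symbols, positions and gene types came from GENCODE M21, matched by 55227 of 55406 identifiers. In R 4.3.3, edgeR 4.0.16 tested the 18144 genes that passed filterByExpr (minimum count 10, minimum total 15), with TMM scaling, all 20 libraries, 1 coefficient per group, quasi-likelihood F tests and Benjamini-Hochberg adjustment over all genes. The SE of a log2 change is its size over the root of its F value. DESeq2 1.42.0 gave the alternative Wald test. Sums over members, shares and ratios carry no test. Shares of counts have 95% Wilson intervals, and ratios of summed counts exact binomial ones. Numbers of V segments are the exact expectation when 60 beta or 21 alpha counts are drawn. Uniqueness compared 50-base stretches with all GENCODE M21 transcripts.

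Named are all constant genes, the highest V and J members by mean CPM, up to 6 called members per contrast, V members above 25% of at least 40 V counts, invariant segments, all CD3 genes and up to 4 genes per list by p. The members, lists and tests were chosen with earlier results of these data known. Nothing in the labels says beyond the titles that samples are separate animals, and p-values measure the spread between these samples. Results of the gamma-delta lineage list and of some other listed genes are not reported here.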

Additional observations from a re-analysis of the deposited data

Results flagged for a closer look

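Of 50 checks for a library far from the others (25 measures in each of the 2 groups of 4), 1 stood out. In full combination 1 the leading beta V segment, Trbv16, took 27.1% of beta V counts, and the gap to the next library was 0.869 of the group's range. Chance alone marks about 1 in 20 such groups.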

How the results depend on the processing

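With the library quality covariate, added after the data were seen, called members were 0 with PARPi+ICB, 0 with PARPi+anti-VEGFA, 5 in the full combination and 0 for ICB added to PARPi. Over all genes that fit called 492, 0, 1494 and 74 higher in these contrasts. Tcrg-C1 then turned to -0.29 (PARPi), -0.63 (ICB), -0.12 (PARPi+ICB) and -0.25 (PARPi+anti-VEGFA) on the log2 scale. The cause was not tested. The Wald test of DESeq2 called 10 with PARPi+ICB, 2 for ICB added to PARPi and 1 for anti-VEGFA added to PARPi. Without the 4 libraries with pancreatic acinar RNA, 5 were called with PARPi+anti-VEGFA. Over all genes that fit called 1430 of 18336 higher, where the fit with them called 1812 of 18144.

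Leaving out 1 library at a time gave 4 to 11 called members with PARPi+ICB (11 without PARPi+ICB 2), 3 to 9 with PARPi+anti-VEGFA (3 without control 3, and 6 without control 1, PARPi+anti-VEGFA 3 or PARPi+anti-VEGFA 4), 7 to 13 in the full combination (7 without control 3) and 0 to 1 for ICB added to PARPi (0 without any 1 of the PARPi libraries, PARPi+ICB 1 or PARPi+ICB 3). Over all genes, these fits called 954 to 1675, 1131 to 1801, 1682 to 2306 and 19 to 230 higher in the same 4 contrasts. The fit of all 20 libraries called 1739, 1812, 2294 and 160. Trdc with ICB ran from -0.33 to 0.099, and turned positive without ICB 2. With constant genes alone, alpha and beta sums were 23.1 CPM (control), 31.7 (PARPi) and 32.7 (ICB), and the gamma-delta share with ICB was 13.8%. All PARPi+anti-VEGFA shares then lay above all control shares, where with all members they overlapped.

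Replicate numbers recur across groups without a stated pairing. Over 46 same-numbered pairs the median correlation of deviations was 0.0088, with 4 above 0.1, and 6 of 20 libraries correlated best with their own number. With replicate number as a block, 6 members were called with PARPi+anti-VEGFA where 10 were without it. Over all genes, 1659 were called higher with the block and 1812 without it. The other alternatives moved no count of calls by over 1.5 times. Depth limits V and J members most: only 26 of 93 members had enough counts to test.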

Other observations

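Outside the members, Trbd1, a beta D segment, had 222 counts over the 20 libraries, at 0.209 ± 0.136 CPM in controls (n = 3) and 0.546 ± 0.227 CPM in the full combination (n = 4), with 2 to 10 and 9 to 23 counts per library. Trbd2, the other beta D segment, had 15 counts. Among J pseudogenes Traj1 had 73 counts and Trbj2-6 had 35.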
